A study of Mus musculus with 12 samples.

Results

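The caspases, the BCL2 family, the inhibitor of apoptosis proteins and their adaptors, the genes that carry out and restrain programmed cell death, were examined in the hippocampus of 12 mice. The genes were chosen by name: symbols beginning with Casp and a digit, Bcl2, Birc or Cide, and 24 further symbols given singly. Of these 24, 9 (Apaf1, Cradd, Pmaip1, Dffa, Dffb, Diablo, Endog, Htra2 and Mcl1) were not on the panel under these symbols. The choice by name gave 33 of the 770 genes of the panel. RNA was counted with the NanoString nCounter assay, in which a colour-barcoded probe pair for each gene is counted directly, without amplification. The groups were 3 female and 3 male mice labelled mtOGG1 and 3 female and 3 male mice labelled control, all of the C57BL6/J background and 13 months old. The series title describes the mtOGG1 mice as having OGG1 in their mitochondria, the glycosylase that removes oxidised guanine from DNA. No source used here names the promoter that drives it, or how the mice were made. In whole hippocampus, fewer cells of a type and less RNA per cell cannot be told apart. The labels name the mice of a group as separate samples. Each p-value of the main fit sets a difference against the spread between mice of a group, pooled over all groups. limma draws that spread toward a trend fitted over all tested genes, so no p-value rests on a gene's own spread alone.

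Apoptosis runs along 2 routes that meet at the effector caspases. In the mitochondrial route, BH3-only proteins such as BID and PUMA release BAX and BAK from anti-apoptotic BCL2 proteins, the outer membrane opens, and caspase-9 is activated. In the death receptor route, FAS or a TNF receptor recruits FADD or TRADD and activates caspase-8. Inhibitor of apoptosis proteins such as XIAP hold the caspases back. These proteins are governed largely by cleavage and binding, so an mRNA level is not a measure of their activity.

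The whole counts behind the values ranged from 281838 to 418467 per mouse, and the deposited values were these counts times 1 factor per mouse, with values under 20 set to 20. This floor corresponds to 15.8 to 24.4 counts, and the highest negative control reached 14 counts. Each gene has its own probe, so values are compared between mice and not between genes. Neuronal markers were present in every mouse, whereas 14 of 15 lymphocyte markers stood at the floor in all 12. Slc17a6, a glutamate transporter gene of subcortical neurons, and Ttr, a choroid plexus gene, varied widely within groups. Slc17a6 ranged from 403 to 1597 in mtOGG1 mice and from 195 to 1208 in control mice. Ttr ranged from 46.8 to 1525 in mtOGG1 mice and from the floor of 20 to 1510.2 in control mice.

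Of the 33 genes, 21 were above the floor in all 12 mice. Bbc3, which encodes the p53-induced BH3-only protein PUMA, was above it in 11 mice, the adaptor gene Tradd in 10, the adaptor gene Fadd in 9, and Bcl2l11, which encodes the BH3-only protein BIM, in 3. These 25 genes were tested, since each exceeded the floor in at least 3 mice. The death receptor gene Fas and Birc5, which encodes the mitotic regulator survivin, were above the floor in 2 mice each, mtOGG1 female 3 and a control female in both cases. Birc3, an inhibitor of apoptosis gene, and Nlrp3, an inflammasome sensor gene, were above it in 1 control mouse each. Bik, Casp4, Fasl and Pycard, which encode a BH3-only protein, an inflammatory caspase, the ligand of FAS and the inflammasome adaptor, stood at the floor in every mouse. No level can be given for these 4 beyond a value of at most 20.

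**Figure D1:**
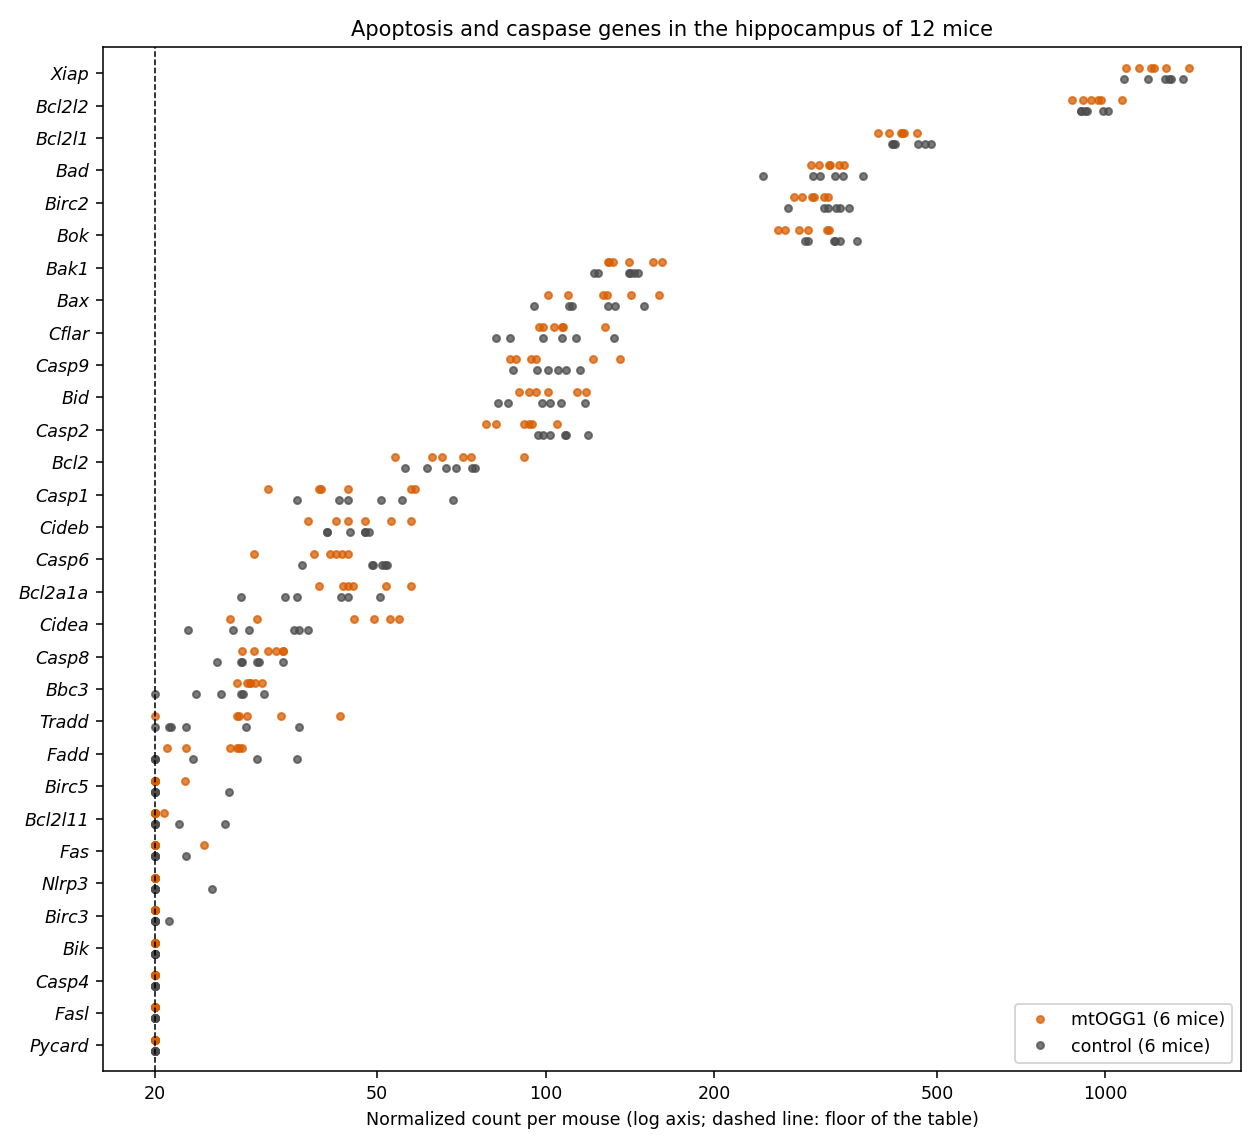
Normalized counts (log axis) of apoptosis genes in each of the 12 mice, coloured by genotype, with the dashed line at the floor of 20. Points of the mtOGG1 and control mice are intermingled for most genes, and the lowest rows, such as Bik and Pycard, lie at the floor in every mouse.

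The first comparison set the 6 mtOGG1 mice against the 6 control mice, averaging the difference of each sex. At an adjusted p of 0.05 limma called 0 of the 25 genes, against 1.32% of the 608 tested genes of the panel. Before adjustment 3 of the 25 (12%) had a p under 0.05, against 11.7% of the panel. These were Casp2 and Casp6, which were lower in mtOGG1 mice, and Cidea, which was higher. Markers of some other cell types also moved with this comparison, and their part was not tested. Endothelial marker sums were 694 to 894 in mtOGG1 mice and 739.8 to 1025 in control mice. For no apoptosis gene did the 6 mtOGG1 mice lie wholly to 1 side of the 6 control mice, as held for 0.822% of the panel. The median log2 fold change of mtOGG1 over control was 0.04 for the 25 genes and -0.00860 for all tested genes, and 16 of the 25 were above 0, against 47.5% of the panel. For all 25 genes the unadjusted 95% interval lay within a 2-fold change either way, and for 24 it lay within 1.5-fold. For the 4 tested genes that reach the floor these intervals are those of the floored values. Where 3 values are given below for a genotype over both sexes, they are the lowest, the median and the highest of its 6 mice, and values of a group of 3 mice follow the mouse numbers of the labels.

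**Figure D2:**
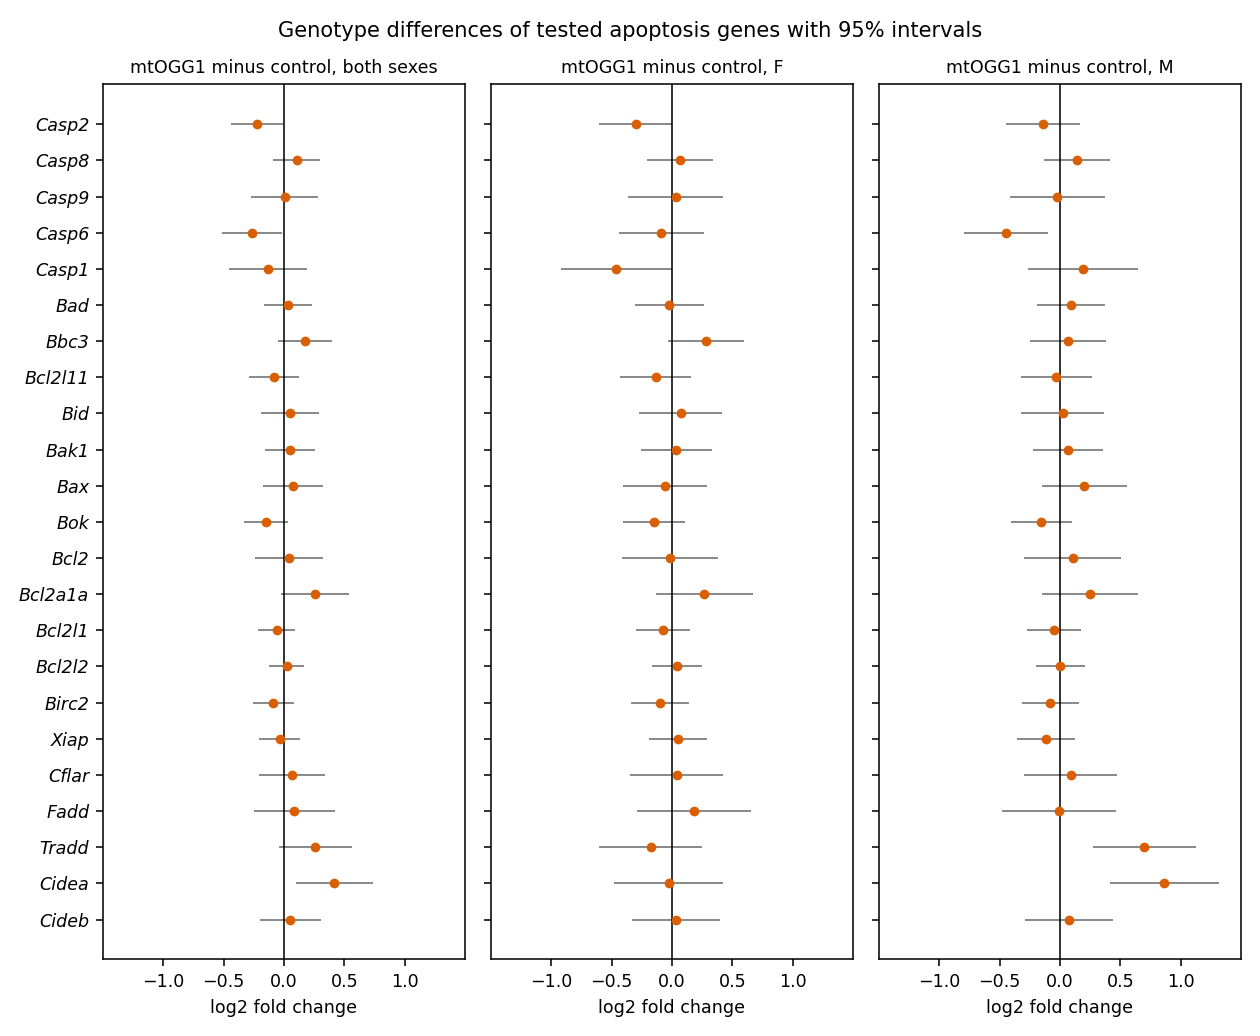
Log2 fold changes of mtOGG1 over control mice with 95% intervals from limma for tested apoptosis genes, averaged over the sexes and for each sex alone. The intervals of Cidea and Tradd in males lie above 0 and that of Casp6 in males lies below it.

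Casp6 encodes an effector caspase, 1 of those that cut the cell's structural proteins, and it had an unadjusted p under 0.05. Casp6 stood at 30.2, 41.6 and 44.3 in mtOGG1 mice and 36.7, 50.1 and 52 in control mice, a fold change of -0.27 on the log2 scale (95% interval -0.52 to -0.02, limma adjusted p = 0.401). The ranges of the genotypes overlapped.

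Among the initiator caspases, Casp2, whose product responds to genotoxic and mitotic stress, was counted at 91.3, 94.4 and 78.2 in mtOGG1 females, against 98.9, 108 and 119 in control females. In males Casp2 was 93.3, 105 and 81.3 in mtOGG1 mice, against 102, 109 and 96.8 in control mice. The female groups did not overlap and the male groups did. Averaged over the sexes this gave a fold change of -0.22 on the log2 scale (95% interval -0.44 to -0.00589, limma adjusted p = 0.407). Casp8, the initiator of the death receptor route, stood at 28.7, 32.4 and 33.9 in mtOGG1 mice and 25.8, 29.6 and 33.9 in control mice, close to the floor, a fold change of 0.10 on the log2 scale (95% interval -0.09 to 0.30, limma adjusted p = 0.693). Casp9, the initiator of the mitochondrial route, stood at 86.4, 95.2 and 136 in mtOGG1 mice and 87.5, 103 and 115 in control mice, a fold change of 0.00496 on the log2 scale (95% interval -0.27 to 0.28, limma adjusted p = 0.981). The highest Casp9 values, 136 and 122, were those of mtOGG1 female 1 and mtOGG1 male 2, and the other mtOGG1 mice lay within or below the control range.

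The sequences around the starts of Casp2, Casp6 and Casp1 are shown because these are the caspase genes with an unadjusted p under 0.05 in a genotype comparison. Each runs 5′ to 3′ from 250 bases before to 50 bases after the RefSeq start (GRCm38.p6), with every GC box (GGGCGG) and CCAAT box (CCAAT), on either strand, in capitals. Casp2 lies at chr6:42264735-42265034, Casp6 at chr3:129901165-129901464 and Casp1 at chr9:5298267-5298566, all on the plus strand.
Casp2: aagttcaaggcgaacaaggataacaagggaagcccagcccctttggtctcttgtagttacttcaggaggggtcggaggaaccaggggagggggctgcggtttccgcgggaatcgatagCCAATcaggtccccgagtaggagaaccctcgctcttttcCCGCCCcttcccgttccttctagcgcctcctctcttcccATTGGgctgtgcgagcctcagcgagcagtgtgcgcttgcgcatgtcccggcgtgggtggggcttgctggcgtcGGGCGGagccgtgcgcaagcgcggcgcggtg
Casp6: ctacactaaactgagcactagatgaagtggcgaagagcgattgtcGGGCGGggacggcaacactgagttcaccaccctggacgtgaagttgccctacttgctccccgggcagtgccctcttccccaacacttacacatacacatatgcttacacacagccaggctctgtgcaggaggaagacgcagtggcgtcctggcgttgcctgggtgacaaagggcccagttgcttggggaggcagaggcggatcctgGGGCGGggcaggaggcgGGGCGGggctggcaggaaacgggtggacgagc
Casp1: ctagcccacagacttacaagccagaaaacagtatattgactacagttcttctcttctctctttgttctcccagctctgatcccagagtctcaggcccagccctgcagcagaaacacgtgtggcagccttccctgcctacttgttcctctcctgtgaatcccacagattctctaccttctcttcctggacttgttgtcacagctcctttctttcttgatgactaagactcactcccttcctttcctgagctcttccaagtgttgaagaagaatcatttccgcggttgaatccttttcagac

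The Casp2 window holds 2 GC boxes, 2 CCAAT boxes and 26 CpG dinucleotides. The Casp6 window holds 3 GC boxes, no CCAAT box and 16 CpG dinucleotides, and the Casp1 window holds neither box and 3 CpG dinucleotides. None of the 3 holds a TATA box (TATAAA on either strand), a motif found in 13.6% of all 32851 RefSeq promoter windows of this length. The GC box was found in 35.7% of all windows and in 61.5% of the 39 windows of the 28 apoptosis genes that had one. The CCAAT box was found in 37.4% of all windows and in 23.1% of those 39. The median number of CpG dinucleotides was 16 in those 39 windows and 7 in all windows. The windows of the other genes of the panel were not counted apart, so these shares do not set apoptosis genes against the panel. A match is a run of letters and was not tested as a binding site.

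The pore-forming BCL2 proteins are encoded by Bax, Bak1 and Bok. Bax stood at 101, 127 and 159 in mtOGG1 mice and 95.1, 120.3 and 149.7 in control mice, a fold change of 0.07 on the log2 scale (95% interval -0.18 to 0.32, limma adjusted p = 0.874). Bak1 stood at 129, 136 and 161 in mtOGG1 mice and 122, 141 and 146 in control mice, a fold change of 0.05 on the log2 scale (95% interval -0.16 to 0.26, limma adjusted p = 0.885). Bok, an atypical member whose protein can act without BAX and BAK, stood at 260.2, 289 and 321 in mtOGG1 mice and 290.5, 328 and 359.6 in control mice, a fold change of -0.15 on the log2 scale (95% interval -0.33 to 0.03, limma adjusted p = 0.514). The ranges of the genotypes overlapped for all 3 genes.

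BH3-only genes, whose products sense damage and act upstream of the pore, were Bad, Bid, Bbc3 and Bcl2l11 among those tested. Bad stood at 298, 322 and 342 in mtOGG1 mice and 244, 319 and 369 in control mice, a fold change of 0.03 on the log2 scale (95% interval -0.17 to 0.23, limma adjusted p = 0.904). Bid, which caspase-8 cleaves to join the 2 routes, stood at 89.6, 98.5 and 118 in mtOGG1 mice and 82.3, 100.2 and 118 in control mice, a fold change of 0.05 on the log2 scale (95% interval -0.19 to 0.29, limma adjusted p = 0.901). The genotypes overlapped for both. Bbc3 stood at 28.1, 29.6 and 31.1 in mtOGG1 mice and 20, 27.4 and 31.4 in control mice, a fold change of 0.17 on the log2 scale (95% interval -0.05 to 0.39, limma adjusted p = 0.533). Bcl2l11 was at the floor in most mice and reached at most 20.8 in mtOGG1 mice and 26.8 in control mice, a fold change of -0.08 on the log2 scale (95% interval -0.29 to 0.12, limma adjusted p = 0.79). Tradd, Fadd, Bbc3 and Bcl2l11 have mice at the floor, whose true values are hidden, so their folds are those of the floored values.

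The anti-apoptotic BCL2 genes keep the outer membrane closed. Bcl2 stood at 53.7, 68.3 and 91.3 in mtOGG1 mice and 55.9, 67.7 and 74.8 in control mice, a fold change of 0.04 on the log2 scale (95% interval -0.24 to 0.33, limma adjusted p = 0.904). Bcl2l1, which encodes the neuronal survival protein BCL-XL, stood at 392, 432 and 461 in mtOGG1 mice and 415, 442 and 488 in control mice, a fold change of -0.06 on the log2 scale (95% interval -0.22 to 0.09, limma adjusted p = 0.792). Bcl2l2, which encodes BCL-W, stood at 870.1, 955 and 1071 in mtOGG1 mice and 903, 923 and 1009 in control mice, with an interval of -0.12 to 0.17, and the genotypes overlapped for these 3 genes. Bcl2a1a stood at 39.3, 44.8 and 57.3 in mtOGG1 mice and 28.5, 39.5 and 50.6 in control mice, a fold change of 0.26 on the log2 scale (95% interval -0.02 to 0.54, limma adjusted p = 0.464), and its value is uncertain because near-identical copies of the gene could share the probe. Within each mouse the ratio of Bax to Bcl2 values, given without a test, averaged 1.96 ± 0.275 in mtOGG1 females, against 2.03 ± 0.356 in control females. In males it averaged 1.74 ± 0.217 in mtOGG1 mice, against 1.64 ± 0.287 in control mice (SD, n = 3 each).

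Of the inhibitors of apoptosis, Xiap, the direct caspase inhibitor, stood at 1089.8, 1216 and 1412 in mtOGG1 mice and 1079.6, 1289 and 1378 in control mice, a fold change of -0.03 on the log2 scale (95% interval -0.20 to 0.14, limma adjusted p = 0.901). Birc2, which encodes the ubiquitin ligase cIAP1, stood at 278, 301 and 319.6 in mtOGG1 mice and 271, 324 and 349 in control mice, a fold change of -0.09 on the log2 scale (95% interval -0.26 to 0.08, limma adjusted p = 0.703). Of the receptor adaptors, Fadd stood at 21, 27.7 and 28.7 in mtOGG1 mice and 20, 21.7 and 36 in control mice, a fold change of 0.08 on the log2 scale (95% interval -0.25 to 0.42, limma adjusted p = 0.885). Cflar, which encodes the caspase-8 decoy FLIP, stood at 97.1, 105 and 128 in mtOGG1 mice and 81.4, 103 and 132 in control mice, a fold change of 0.06 on the log2 scale (95% interval -0.21 to 0.34, limma adjusted p = 0.885). For each of these 4 genes the ranges of the genotypes overlapped.

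In males limma called 0 of the 25 genes at an adjusted p of 0.05, against 0.987% of the panel. Before adjustment 3 of the 25 (12%) had a p under 0.05, against 13.3% of the panel: Cidea and Tradd were higher and Casp6 was lower in mtOGG1 males. For the same 3 the groups did not overlap, as held for 17.8% of the panel. The median log2 fold change was 0.07 for the 25 genes and -0.02 for all tested genes, and 15 of the 25 were above 0, against 45.1% of the panel. Intervals lay within 2-fold either way for 23 of the 25.

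Cidea, a lipid droplet and cell death gene best known from brown fat, was counted at 52.8, 45.5 and 49.3 in mtOGG1 males, against 29.5, 27.7 and 23 in control males. Every mtOGG1 male was above every control male, with a fold change of 0.86 on the log2 scale (95% interval 0.41 to 1.31, limma adjusted p = 0.0541). The control male values lay close to the floor of 20, and with a pseudocount of 20 the male value was 0.57. In females Cidea was 30.4, 27.3 and 54.7 in mtOGG1 mice, against 35.5, 37.7 and 36.2 in control mice, so that 1 mtOGG1 female was above the controls and the others were below them. In females this was a fold change of -0.03 on the log2 scale (95% interval -0.48 to 0.42, limma adjusted p = 1), and averaged over the sexes it was a fold change of 0.42 on the log2 scale (95% interval 0.10 to 0.74, limma adjusted p = 0.315). Without mtOGG1 female 3 the value averaged over the sexes was 0.27 (limma adjusted p = 0.560, with a range of 0.149 to 0.706 over all alternatives). Its relative Cideb stood at 37.6, 45.9 and 57.5 in mtOGG1 mice of both sexes and 40.6, 46.1 and 48.4 in control mice, a fold change of 0.05 on the log2 scale (95% interval -0.20 to 0.31, limma adjusted p = 0.901). The male Cidea result fell on the other side of the threshold in some alternative fits: adjusted p was 0.0494 without a variance trend, 0.0439 with robust variances, 0.0254 with the 6 males alone and 0.00467 without mtOGG1 female 3. Over all alternatives it ran from 0.00467 to 0.210. A female enters the male comparison only through the spread, which is pooled over all groups.

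**Figure D3:**
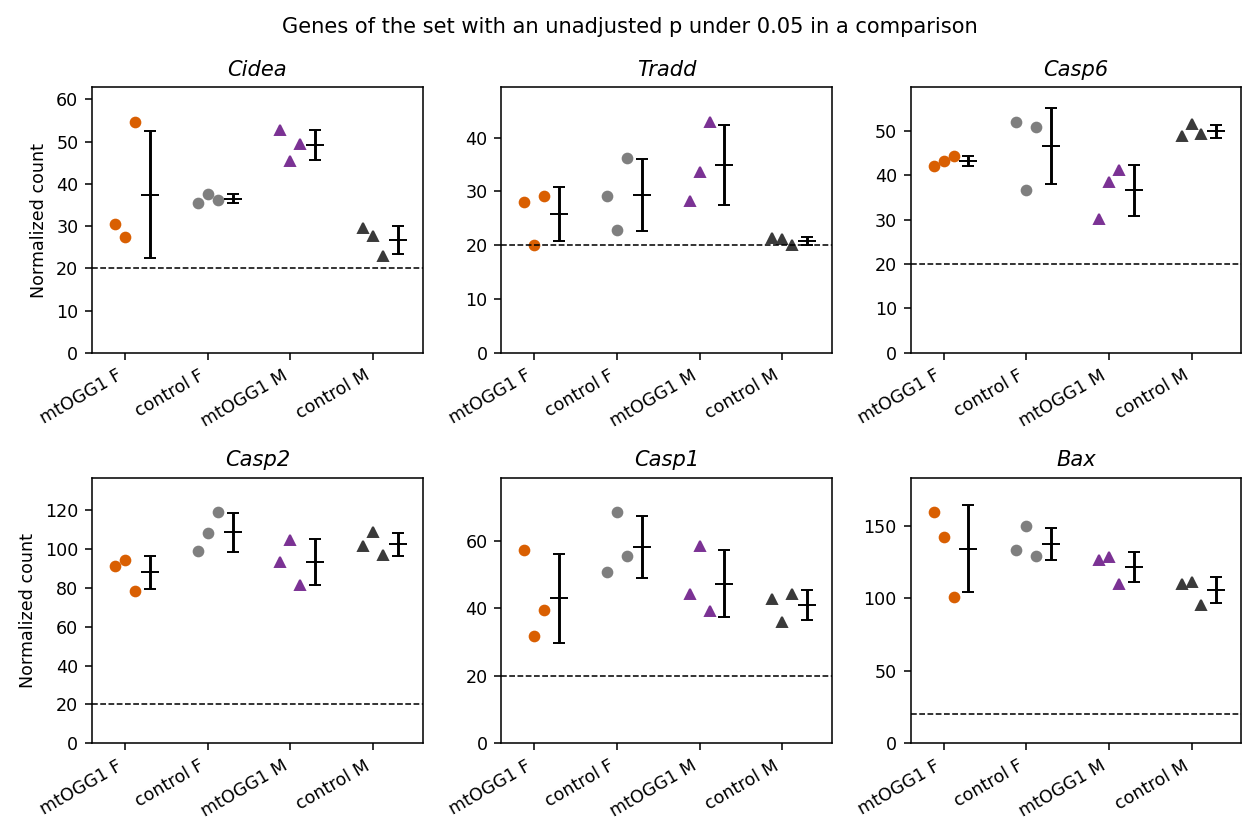
Normalized counts of Cidea, Tradd, Casp6, Casp2, Casp1 and Bax, the genes with an unadjusted p under 0.05 in a comparison, as 1 point per mouse (circles, females; triangles, males) beside the group mean ± SD (n = 3), with the dashed line at the floor of 20. Each mtOGG1 male lies above each control male for Cidea and Tradd and below each for Casp6.

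Tradd was counted at 28.3, 33.6 and 42.9 in mtOGG1 males, against 21.4, 21.2 and 20 in control males, 1 of which was at the floor. The male groups did not overlap, with a fold change of 0.70 on the log2 scale (95% interval 0.27 to 1.12, limma adjusted p = 0.114). With a pseudocount of 20 the male Tradd value was 0.42, and its adjusted p ran from 0.0692 to 0.393 over all alternatives. In females Tradd was 28.1, 20 and 29.2 in mtOGG1 mice, against 29.2, 22.8 and 36.2 in control mice, and the groups overlapped. Casp6 was counted at 30.2, 38.6 and 41.1 in mtOGG1 males, against 48.8, 51.6 and 49.2 in control males, with a fold change of -0.45 on the log2 scale (95% interval -0.80 to -0.10, limma adjusted p = 0.21). In females Casp6 was 42.1, 43.2 and 44.3 in mtOGG1 mice, against 52, 36.7 and 50.9 in control mice, and the 3 mtOGG1 values lay within the range of the controls.

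Markers of some other cell types moved with the male comparison and with that averaged over the sexes. All 6 astrocyte markers were above 0 with the sexes averaged and 5 were in males, with medians of 0.13 and 0.27 on the log2 scale, and 0 passed. The medians with the sexes averaged and in males were -0.04 and -0.02 for neuronal markers, and -0.0081 and 0.11 for microglial markers. The 16 oligodendrocyte markers, of which 1 passed as higher in mtOGG1 males (Opalin, 0.70 on the log2 scale, limma adjusted p = 0.0155), summed to between 17645 and 25087 in mtOGG1 males and between 13165 and 18051 in control males. The 8 endothelial markers summed to between 694 and 778 in mtOGG1 males and between 902 and 1025 in control males. Of these 8, 1 passed as lower in mtOGG1 males (Ly6a, -0.67 on the log2 scale, limma adjusted p = 0.0253). Slc17a6 was 1597, 403 and 1229.8 in mtOGG1 males, against 222, 726 and 286 in control males, and Ttr was 1173, 1361 and 1525 in mtOGG1 males, against 35.6, 1510.2 and 336 in control males. No oligodendrocyte or endothelial marker was at the floor in every mouse, nor was Slc17a6 or Ttr. With Slc17a6 as a covariate the male Cidea log2 fold change was 0.70 (limma, adjusted p = 0.204), and with Ttr 0.75 (adjusted p = 0.136). In the comparison averaged over the sexes, 14 of the 16 oligodendrocyte markers were above 0 and 0 passed, and the summed level was between 17645 and 25087 in mtOGG1 mice and between 13165 and 24428 in control mice. All 8 endothelial markers were below 0 there and 1 passed (Ly6a, -0.43 on the log2 scale, limma adjusted p = 0.0486). Slc17a6 differed by 1.06 on the log2 scale in the same comparison (limma adjusted p = 0.401). Fitted with Slc17a6 as a covariate, Cidea was 0.29 (limma adjusted p = 0.706), Casp2 -0.22 and Casp6 -0.26. In females alone the median log2 fold change was 0.02 for the oligodendrocyte markers and -0.02 for the endothelial markers, against 0.41 and -0.34 in males. Of the 8 endothelial markers 4 were above 0 in females and 4 below, with sums of 747 to 894 in mtOGG1 females and 739.8 to 959 in control females. The part of the oligodendrocyte, astrocyte and endothelial markers in the differences of Cidea, Tradd, Casp6 and Casp2 was not tested.

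**Figure D4:**
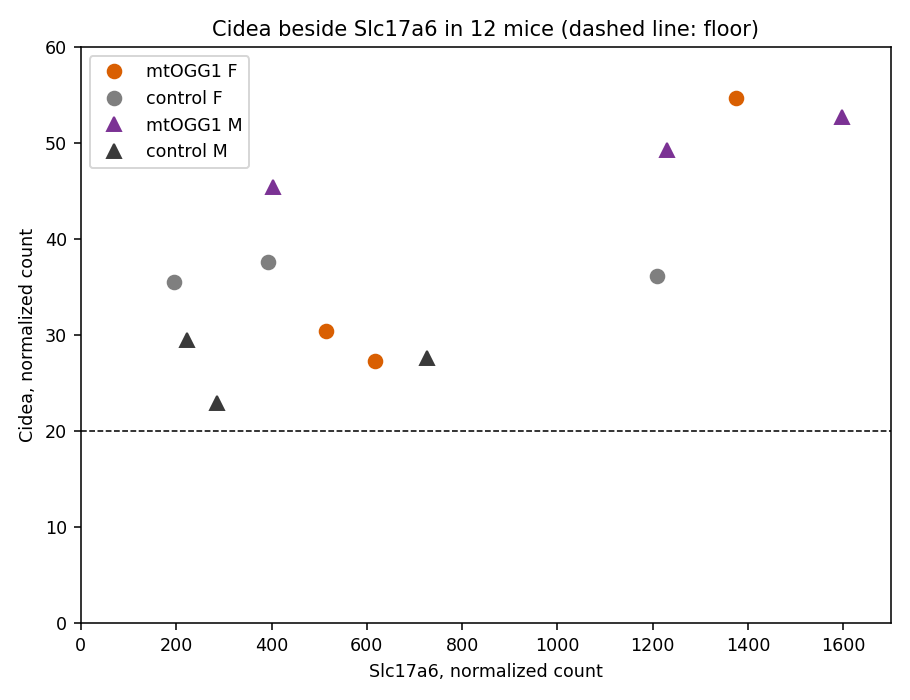
Cidea against Slc17a6 (normalized counts, 12 mice, dashed line at the floor of 20), by group. The 3 mtOGG1 males lie above the 3 control males in Cidea, and Slc17a6 ranges from 403 to 1597 in these mtOGG1 males and from 222 to 726 in these control males.

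In females limma called 0 of the 25 genes at an adjusted p of 0.05, and 0% of the panel. Before adjustment only Casp1 (4%) had a p under 0.05, against 2.96% of the panel. Casp1, the caspase that matures interleukin-1β, was counted at 57.3, 31.9 and 39.6 in mtOGG1 females, against 50.7, 68.4 and 55.4 in control females. Of the mtOGG1 females, 1 lay within the control range and the others were below it, with a fold change of -0.46 on the log2 scale (95% interval -0.92 to -0.00392, limma adjusted p = 1). In males Casp1 was 44.3, 58.3 and 39.3 in mtOGG1 mice, against 42.7, 36 and 44.3 in control mice, and the groups overlapped. The female value ran from -0.69 without mtOGG1 female 1 to -0.27 without mtOGG1 female 2. Casp2 was the only 1 of the 25 genes whose female groups did not overlap (4%, against 5.26% of the panel). Of the 25 genes 13 were above 0 in females, against 47.7% of the panel, and the intervals of 19 lay within 1.5-fold either way.

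The interaction, the female genotype difference minus the male one, was past an adjusted p of 0.05 for none of the 25 genes and for 0% of the panel. Before adjustment Casp1, Cidea and Tradd (12%) had a p under 0.05, against 4.77% of the panel. The interaction was -0.89 for Cidea (95% interval -1.53 to -0.25, limma adjusted p = 0.892). For Tradd it was -0.88 (95% interval -1.48 to -0.27, limma adjusted p = 0.892), and for Casp1 it was -0.65 (95% interval -1.29 to -0.00326, limma adjusted p = 0.932). Of the 25 genes 11 had an interaction above 0, against 56.2% of the panel. The interaction interval lay within 2-fold for 22 of the 25 genes and within 1.5-fold for 13.

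Females against males over both genotypes gave 0 of the 25 genes past an adjusted p of 0.05, against 0.658% of the panel. Bax had the only unadjusted p under 0.05 (4%, against 6.41% of the panel). Bax was counted at 159, 142 and 101 in mtOGG1 females and 133, 149.7 and 129 in control females. In males it was counted at 126, 129 and 109.6 in mtOGG1 mice and 109.8, 112 and 95.1 in control mice. Females over males gave a fold change of 0.25 on the log2 scale (95% interval 7.06e-05 to 0.50, limma adjusted p = 0.773), and the sexes overlapped. With Ttr, which was -2.26 in the same comparison, as a covariate the Bax value was 0.15. No gene of the 25 had sexes that did not overlap, as held for 0.658% of the panel, and 19 were above 0, against 66.8% of the panel.

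Precision differed between the genes. The spread between mice of a group was above the counting error for 16 of the 21 genes measured in all mice and at or below it for 5, Casp2, Casp6, Casp8 and Cideb among them. The ratio of spread to counting error ran from 0.319 for Casp8 to 3.23 for Xiap, with a median of 1.33. Ratios near 1, such as 0.95 for Casp2 and 1.06 for Bcl2a1a, rest on 3 mice per group and were not tested against 1. The mice also differed in how many of the 21 genes stood above their median: 16, 11 and 6 in mtOGG1 females, against 11, 10 and 19 in control females. In males it was 12, 9 and 4 in mtOGG1 mice, against 3, 12 and 13 in control mice. In mtOGG1 female 1 the median deviation was 0.17 on the log2 scale for the 21 genes and 0.14 for 537 panel genes, and in control male 1 it was -0.10 and -0.09. In control male 2 it was 0.03 for the 21 genes and 0.09 for the panel genes, and in control male 3 it was 0.03 and -0.01.

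**Figure D5:**
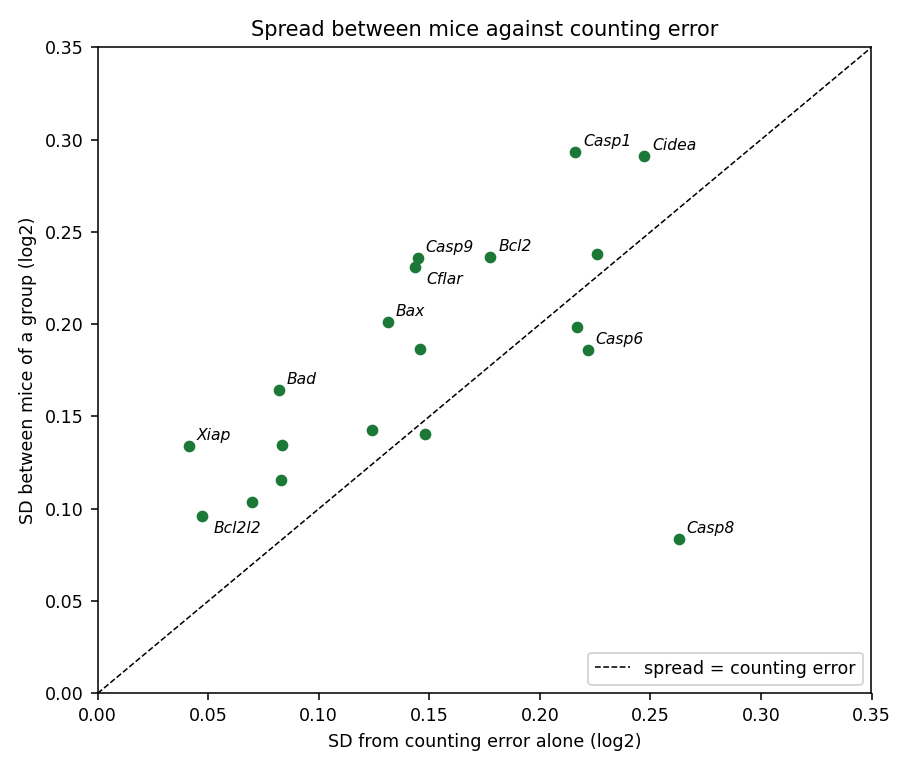
Spread between mice of a group against the counting error (SD of log2 values, both axes) for apoptosis genes above the floor in all 12 mice, with the line of equality. Xiap has the highest ratio of spread to counting error (3.23) and Casp8 the lowest (0.319).

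Other genes of the pathway, which are not among the 33, were described by list. Of 14 death receptor, ligand and RIP kinase genes on the panel 12 were tested and 0 passed, averaged over the sexes or in either sex. Their median difference with the sexes averaged was -0.02 on the log2 scale, and the lowest adjusted p in that comparison was that of the receptor gene Tnfrsf12a, at -0.31 on the log2 scale (limma adjusted p = 0.423). Of 14 p53 and damage response genes 11 were tested, with a median of -0.03. The p53 target Cdkn1a, whose product p21 halts the cell cycle, was the only 1 to pass when the sexes were averaged, at -0.90 on the log2 scale (limma adjusted p = 0.0231). Of 9 inflammasome products and partners 5 were tested and 0 passed, with a median of 0.05. The cytokine genes Il1b, of this list, and Tnf, of the death receptor and ligand list, were at the floor in every mouse. Of 11 BAG, BNIP and survival genes all 11 were tested and 0 passed, with a median of 0.01. The kinase gene Akt2 had the lowest adjusted p among them, at -0.34 on the log2 scale (limma adjusted p = 0.315).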

How the data were processed

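Hippocampal RNA of 12 mice, in 4 groups of 3 taken from the sample titles, was counted with an nCounter panel. The deposited signal values had been normalized by the authors, whose design text names the nCounter Advanced Analysis Suite. A value above 20 was a whole count times 1 factor per mouse (0.82 to 1.27; 100% whole within 0.03). The origin of the factors and of the floor of 20 is not stated in the labels. Their protocol links a metabolic panel page, whereas the gene content here was taken from the table. A count test was not used, since the floor hides low counts.

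Values were taken as log2(value + 1), so folds of low genes are understated, and limma 3.58.1 (R 4.3.3) was run with a variance trend, 1 mean per group and 5 contrasts. Adjustment was by Benjamini-Hochberg over 608 genes above the floor in at least 3 mice. Fits were also run on simulated data with known changes, and no result given here rests on that run. Genes named are those with an unadjusted p under 0.05 in a contrast and representatives of each role. The genes and lists were chosen with earlier results of these data known. Replicate pairs differed by more than counting error (chi-square per degree of freedom 2.46 to 16.8, 12 pairs). Alternatives changed the pseudocount, filter, scaling, variance model, covariates, replicate block and samples. All 33 symbols were current in RefSeq, and promoter sequences are RefSeq's (GRCm38.p6). Figures used matplotlib 3.10.9 in Python 3.11.15. Some of the tested genes are counted in the totals and not reported here singly or drawn.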

Additional observations from a re-analysis of the deposited data

How the results depend on the processing

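In males the number of apoptosis genes past the threshold was 0 and became 1, Cidea, without a variance trend, with robust variances and with the 6 males alone. It ran from 0 to 1 over the 12 fits that each left out 1 mouse, with 1 in the fit without mtOGG1 female 3. The counts in the other 4 comparisons stayed at 0 in every alternative run. The male Cidea log2 fold change ran from 0.57 with a pseudocount of 20 to 0.92 with scaling on panel reference genes, among alternatives that kept all mice, and from 0.76 to 0.94 over those leaving out 1 mouse. Its adjusted p ran from 0.00467 to 0.210 over all alternatives. Cidea over both sexes ran from 0.27 to 0.51 over the fits leaving out 1 mouse, and male Tradd from 0.54 to 0.84. A minimum mean of 50 removed Cidea, Casp6, Casp1 and Tradd, so that they gave no value there. None of the genes with a p under 0.05 before adjustment changed direction in any alternative that gave them a value. The median log2 fold change of the 25 genes became -0.07 in females without mtOGG1 female 1 and -0.05 in males without control male 1, and that of the interaction became 0.05 without control male 1. With Slc17a6 as a covariate the median over both sexes was -0.02. The causes were not tested.

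With the replicate number as a block the count was 0 in each comparison, and male Cidea was 0.86 (limma, adjusted p = 0.0754). Across groups, 18 pairs of same-numbered mice had correlations of deviations from -0.336 to 0.556, of which 8 were over 0.1. Pairs with different numbers ran from -0.576 to 0.628, so the numbers were not taken as pairs. The floor set on the values limits Tradd, Fadd, Bbc3 and Bcl2l11, which reach it, and the 8 untested genes. The part of depth was not tested.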
